A study of Mus musculus with 6 samples.

Results

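The genes described here are those of the developing red cell: the proteins of its membrane and membrane skeleton, the enzymes and carriers of haem synthesis, the globins, 2 carbonic anhydrases, the receptors for erythropoietin and transferrin, and the transcription factors of the lineage. They were taken by symbol from a list of 39 names, drawn up by function with earlier results of these data known. Of these, 38 were among the 23420 gene symbols of the deposited files, and Ahsp, which encodes the chaperone of free alpha globin, was not. The libraries were RNA sequencing of dendritic cells of the spleen, which take up antigen and show it to T cells, from mice of strain C57BL/6, in 2 groups of 3. One group was labelled TBK1-DKO and the other wild type (WT). TBK1 is a kinase that acts downstream of sensors of viral and bacterial nucleic acids. The labels do not spell out DKO, name the alleles, say how the cells were purified or tie the libraries to different animals, so the p-values measure the spread between these libraries only. The age was 10 weeks in one label and 8 weeks in another. In the text, TBK1-DKO and WT stand for the libraries with those labels.

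Red cells form from erythroblasts, which in mice are found in the bone marrow and, in smaller numbers, in the red pulp of the spleen. A maturing erythroblast lays a mesh of spectrin under its membrane, anchors it through ankyrin to the anion exchanger band 3, imports iron through the transferrin receptor and makes haem in a pathway that begins and ends in the mitochondrion. The factors GATA1, TAL1 and KLF1 bind the control regions of many of these genes, at GATA and CACCC sequence motifs. Dendritic cells belong to another branch of blood formation.

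The libraries held between 45018389 and 47349648 gene reads in the TBK1-DKO group, against between 31077585 and 36145508 in the WT group, and 14388 genes passed the filter on low counts. Levels are given in CPM (reads of a gene in 1000000 gene reads) and as mean ± SD of 3 libraries, and fold changes as log2 of TBK1-DKO over WT. The level of Tbk1 itself in TBK1-DKO was 83.9, 79.2 and 83.8 CPM, and in WT it was 90.7, 80.8 and 83.7 CPM, a log2 fold change of -0.05 (adjusted p = 0.629). Which part of the gene was altered is not given in the sources used here, so a count over the whole gene does not check the labels. Of all genes tested, 1978 were higher and 1424 lower in TBK1-DKO, so 58.1% of the calls were higher, against 47.5% once trends with transcript length and GC content were taken out. TBK1-DKO 2 and WT 1 stood apart from their groups. The median absolute log2 difference over genes was 0.15 between TBK1-DKO 1 and 2 and 0.15 between 2 and 3, but 0.05 between 1 and 3. It was 0.12 between WT 1 and 2 and 0.13 between 1 and 3, but 0.07 between 2 and 3.

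Erythroid genes were higher in the libraries labelled TBK1-DKO in every functional group. Of the 38 members in the files, 34 passed the filter on low counts. All 34 were called higher and 0 lower by edgeR's quasi-likelihood test (adjusted p under 0.05), where 13.7% of all genes tested were called higher, 9.90% lower and 23.6% in either direction. With all 34 called higher, none could be lower at an unadjusted p under 0.05 (0). DESeq2 and limma-voom also called all 34 higher, and so 0 lower. In CPM scaled by TMM factors, all 3 TBK1-DKO libraries lay above all 3 WT libraries in each of the 34. This held for 21.5% of all genes tested. For Tfrc it held only with the TMM factors. It follows that no member had all 3 TBK1-DKO libraries below all 3 WT libraries, which held for 19.5% of all genes tested. The median log2 fold change of the 34 was 0.74, from 0.28 for Tfrc to 1.12 for Alad, beside a median of 0.00 over all genes tested. It was 0.5 or more in 27 members that were called higher, which holds for 6.95% of all genes tested. The 4 members that were not tested were alpha and beta globin symbols with 1 read or none, described with the globins. None was removed for a low level in WT only.

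Added up, the members took 1.09%, 1.14% and 1.08% of the gene reads in TBK1-DKO 1, 2 and 3, against 0.706%, 0.685% and 0.670% in WT 1, 2 and 3. The 2 ranges did not overlap, and the summed level in CPM was 1.61 times as high in TBK1-DKO. In RNA from a mixture of cells, more erythroid cells and more erythroid RNA per cell cannot be told apart. With TBK1-DKO 1 and 3 against WT 2 and 3, leaving out the pair that stood apart, all 34 members were again called higher, with a median log2 fold change of 0.68; 24.2% of all genes tested were called higher in that comparison.

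**Figure D1:**
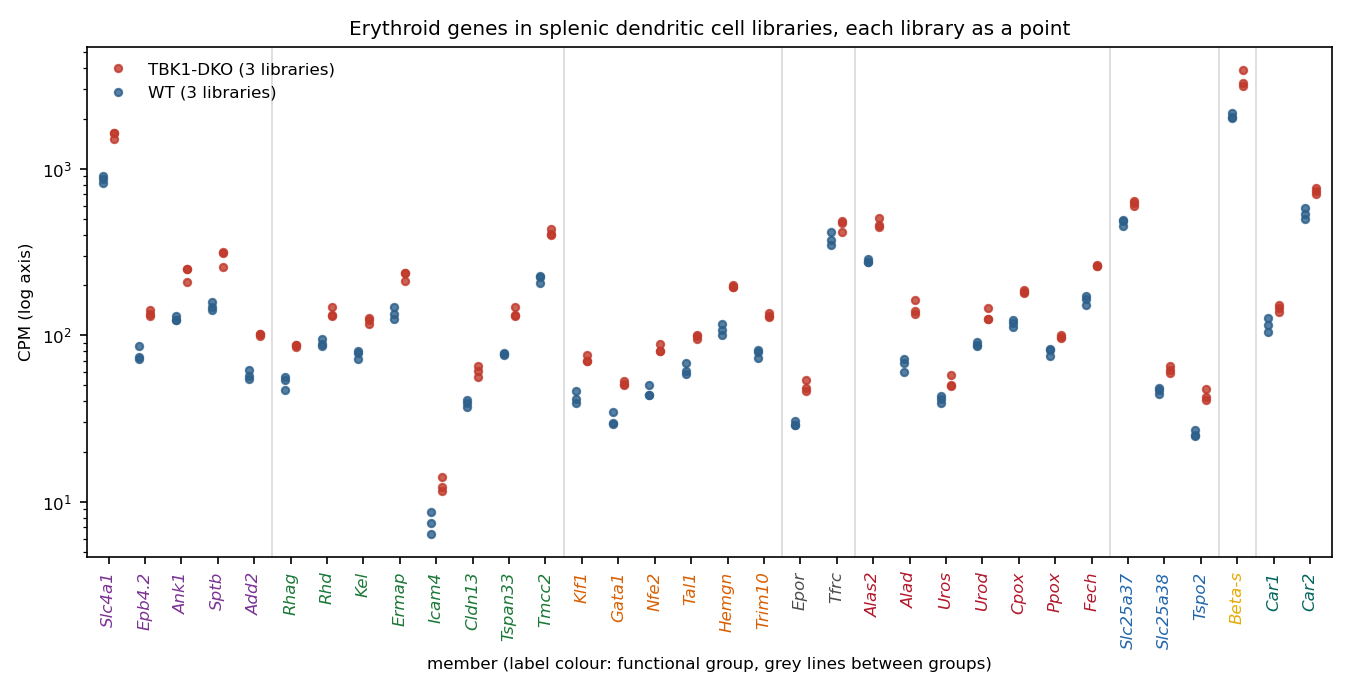
Level of each tested member in CPM on a log axis, 1 point per library (TBK1-DKO red, WT blue), with labels coloured by functional group and grey lines between groups. In all 34 genes the 3 TBK1-DKO points lie above the 3 WT points in CPM scaled by TMM factors, with the narrowest separation for Tfrc.

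Markers of other cells moved too, beside 13.7% of all genes tested called higher and 9.90% lower. All 10 tested markers of neutrophil precursors were higher, with a median log2 fold change of 1.64 and a summed level of 3504 to 3891 CPM in TBK1-DKO against 1316 to 1508 in WT. Mpo, the myeloperoxidase of these cells, was at 195, 204 and 192 CPM against 49.0, 55.1 and 48.6. All 12 cell division markers were higher as well (median 0.85; 2163 to 2530 CPM against 1284 to 1514), among them Mki67 with a log2 fold change of 0.75. Of 12 tested red pulp macrophage markers, 9 were lower and 3 not called (median -0.54; 4126 to 4353 CPM against 6354 to 6561), and Spic, the factor that these macrophages need, had a log2 fold change of -0.47.

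Several lymphocyte markers were lower, and the dendritic cell list moved in both directions. The same shares over all genes tested, 13.7% higher and 9.90% lower, stand beside these lists. Of 7 B cell markers 4 were lower and 3 not called (2765 to 2878 CPM against 3333 to 3460), and of 8 T cell markers 5 were lower and 3 not called (439 to 447 CPM against 487 to 496). Among 14 dendritic cell markers, 2 were higher and 4 lower, and their summed level overlapped between the groups, at 13569 to 15327 CPM against 14175 to 15640. Flt3, the growth factor receptor of dendritic cells, had a log2 fold change of 0.01 and was not called, Zbtb46 one of 0.35 (higher) and Itgax, CD11c, one of -0.20 (lower). No marker in any of these lists was at 0 in all 6 libraries, so transcripts of every list were detected. Counts above 0 do not show which cells the libraries held. What part these lists had in the erythroid result was not tested.

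**Figure D2:**
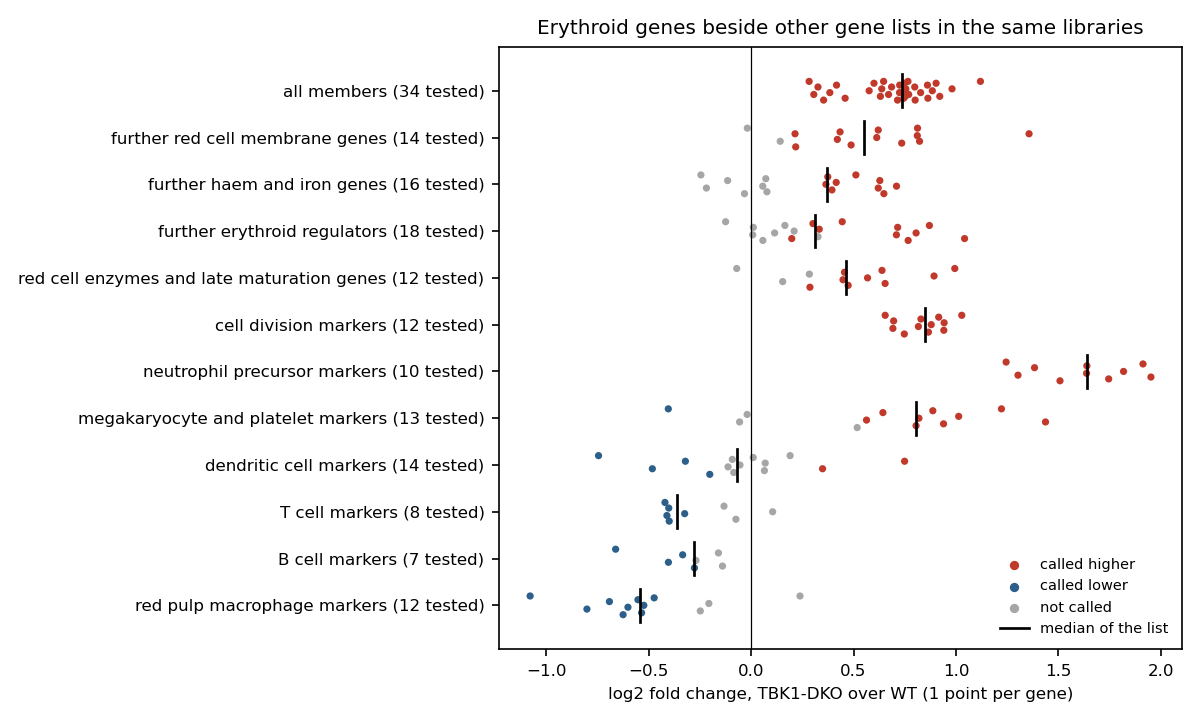
The log2 fold change of TBK1-DKO over WT for each tested gene, 1 point per gene, by list; red points were called higher, blue lower and grey not called, and the black bar is the median of the list. The 34 members lie between 0.28 and 1.12, the neutrophil precursor markers lie further to the right with a median of 1.64, and the red pulp macrophage markers lie mostly to the left of 0.

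The membrane skeleton was the group with the highest median change, 0.88, with its 5 genes between 0.80 and 0.98. Slc4a1 encodes band 3, the chloride and bicarbonate exchanger to which the skeleton is tied, and lies at chr11:102348824-102366203 on the minus strand (GENCODE M21, GRCm38). Its level was 1636, 1501 and 1629 CPM in TBK1-DKO 1, 2 and 3 and 900, 866 and 817 CPM in WT 1, 2 and 3. All 3 TBK1-DKO libraries thus lay far above the WT range, and the log2 fold change was 0.88 (SE 0.069, adjusted p = 1.49e-05). Ank1, erythroid ankyrin, was at 250, 208 and 249 CPM against 130, 124 and 124, a log2 fold change of 0.90 (SE 0.076, adjusted p = 2.42e-05). Sptb, the beta chain of erythroid spectrin, was at 310, 256 and 317 CPM against 158, 142 and 147, a log2 fold change of 0.98 (SE 0.085, adjusted p = 2.81e-05). In both genes TBK1-DKO 2 was the lowest of its group, and in both it was still above every WT library.

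The remaining skeleton genes were Epb4.2, protein 4.2, which steadies the contact of ankyrin with band 3, and Add2, beta adducin, which caps actin at the spectrin junctions. Epb4.2 was at 135 ± 5.6 CPM against 77.5 ± 7.4 and Add2 at 101 ± 1.9 CPM against 57.9 ± 3.8, each with a log2 fold change of 0.80. Summed over the 5 genes, the group stood at 2194 to 2439 CPM in TBK1-DKO against 1215 to 1336 CPM in WT, 1.85 times as high.

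All 8 surface and blood group genes were called higher, with a median log2 fold change of 0.74 and summed levels of 1181 to 1224 CPM against 676 to 713. Rhag and Rhd encode the Rh-associated ammonia channel and the Rh polypeptide that sit together in the membrane. Rhag was at 86.4 ± 1.7 CPM in TBK1-DKO against 52.3 ± 4.6 CPM in WT (log2 fold change 0.73), and Rhd at 136 ± 10 and 90.0 ± 4.2 CPM (0.60). Kel, the Kell blood group endopeptidase, stood at 122 ± 4.6 against 76.9 ± 4.8 CPM (0.67). Ermap, the Scianna blood group protein, stood at 227 ± 15 against 136 ± 11 CPM (0.74).

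Tmcc2 had the largest change of the surface group. Its levels were 400, 436 and 407 CPM against 207, 224 and 225, and the log2 fold change was 0.92 (SE 0.063, adjusted p = 6.77e-06). The groups were separated by more than their own range. The tetraspanin Tspan33 was at 137 ± 9.7 against 77.0 ± 0.69 CPM (0.83), and the claudin Cldn13 at 60.7 ± 4.9 against 38.99 ± 1.9 CPM (0.64).

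Icam4, the Landsteiner-Wiener adhesion protein, by which erythroblasts bind other cells, had the fewest reads of the tested members. It was at 12.3, 14.1 and 11.6 CPM in TBK1-DKO against 6.43, 8.63 and 7.49 CPM in WT, with a log2 fold change of 0.75 and the widest error of the members (SE 0.12, adjusted p = 0.00128). The lowest TBK1-DKO library was still above the highest WT library. All of its exon bases (100%) overlap the gene Gm47079 on the opposite strand. The strand setting of the counting is not given in the sources used here, so reads of the pair cannot be told apart. Among the 36 members with an exon model, 33 had under 10% of their exon bases in another gene.

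All 6 transcription factors and nuclear regulators of the lineage were higher. Their summed level was 624 to 647 CPM in TBK1-DKO against 347 to 380 CPM in WT, with a median log2 fold change of 0.76. Klf1, the zinc finger factor that switches on adult beta globin, was at 70.2, 75.6 and 70.0 CPM against 39.4, 45.9 and 41.5. Its log2 fold change was 0.77 (SE 0.070, adjusted p = 3.99e-05). Gata1, the factor on which erythroid maturation depends, was at 50.03, 53.0 and 50.9 CPM against 29.5, 34.7 and 29.6, a log2 fold change of 0.71 (SE 0.074, adjusted p = 9.07e-05). In neither gene did the groups overlap.

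Nfe2, the large subunit of the factor NF-E2, was at 83.1 ± 5.0 against 45.7 ± 3.6 CPM (log2 fold change 0.86), and Tal1, a partner of GATA1 on DNA, at 98.1 ± 2.7 against 62.7 ± 5.1 CPM (0.65). Hemgn, a nuclear protein of blood precursors, was at 196 ± 2.8 against 108 ± 8.2 CPM (0.86), and Trim10, a tripartite motif protein of erythroblasts, at 131 ± 3.7 against 78.1 ± 4.5 CPM (0.75). Gata1, Nfe2 and Tal1 are also expressed by megakaryocytes, the platelet precursors. Of 13 tested megakaryocyte and platelet markers, 9 were higher and 1 lower (median 0.81), beside 13.7% and 9.90% of all genes tested. Their summed level was 106 to 116 CPM in TBK1-DKO against 106 to 111 CPM in WT, which overlapped. Pf4, platelet factor 4, was at 4.36, 4.37 and 3.89 CPM against 2.96, 2.86 and 2.26 (0.64), and Itga2b, the platelet integrin chain, at 15.4, 16.2 and 16.5 CPM against 8.14, 8.44 and 7.23 (1.01). The share of these 3 factors' reads that came from such cells was not tested.

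**Figure D3:**
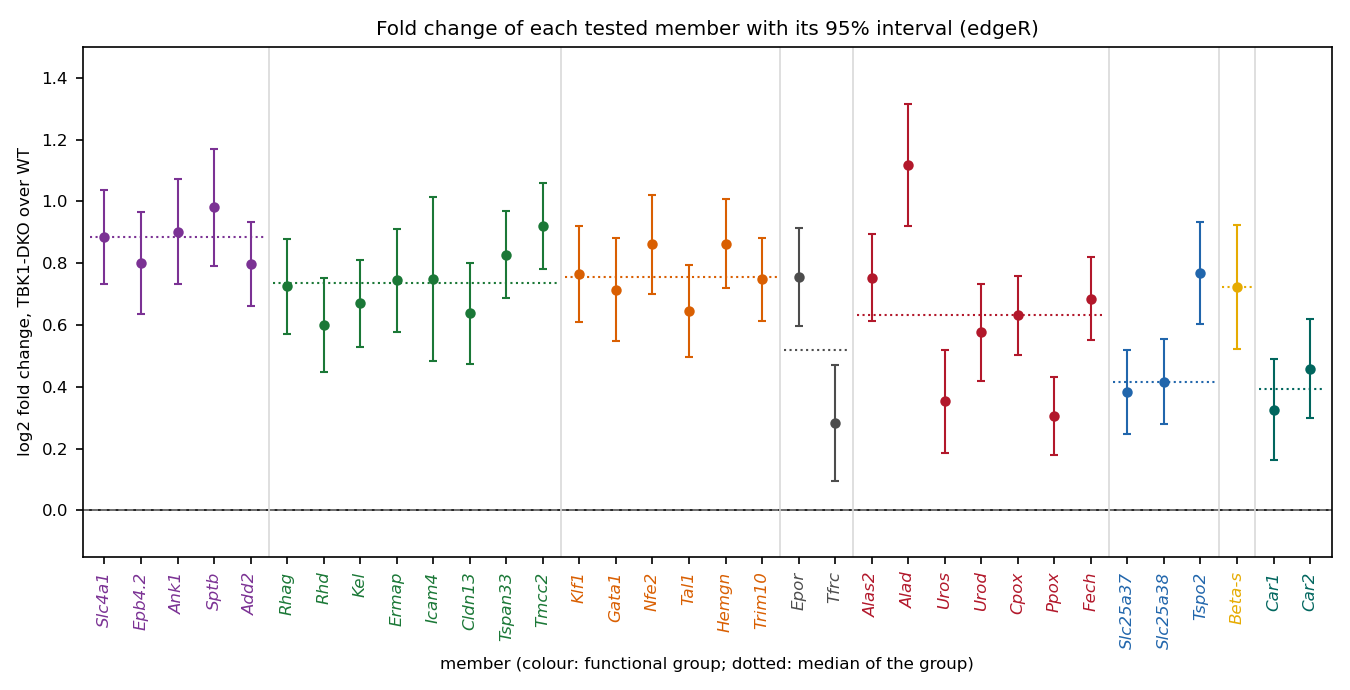
The log2 fold change of each tested member, TBK1-DKO over WT, with its 95% interval from edgeR as the bar; colours mark the functional groups and dotted lines their medians. Membrane skeleton genes sit around 0.88, while Tfrc, Ppox, Car1, Uros, Slc25a37, Slc25a38 and Car2 sit below 0.5.

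The 2 receptors differed in size of change. Epor, the receptor for erythropoietin, the hormone that keeps erythroid precursors alive, was at 48.2, 54.0 and 46.3 CPM in TBK1-DKO against 28.8, 28.8 and 30.3 CPM in WT. The groups were far apart, with a log2 fold change of 0.76 (SE 0.072, adjusted p = 5.07e-05). Tfrc, transferrin receptor 1, which carries iron into erythroblasts and into dividing cells in general, was at 487, 418 and 475 CPM against 417, 371 and 346. TBK1-DKO 2, the lowest of its group, lay just above WT 1, the highest of the other. That order rested on the TMM factors. As plain shares of gene reads, 19061 of 45744145 in TBK1-DKO 2 was below 13109 of 31077585 in WT 1. The log2 fold change was 0.28 (SE 0.084, adjusted p = 0.0348). This call was lost without TBK1-DKO 1 (adjusted p = 0.124), without TBK1-DKO 3 (0.104), without WT 2 (0.139) and without WT 3 (0.159). The 95% intervals of Epor (0.60 to 0.91) and Tfrc (0.10 to 0.47) did not overlap.

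Promoter sequences of members that moved together are shown for a receptor, a factor, a haem enzyme and a globin, to set the letters of the motifs named above beside the genes. Each is the 250 bases before the RefSeq start of the gene (GRCm38.p6), 5′ to 3′ on the strand of the gene. Capitals mark a GATA motif (AGATAA or AGATAG or TGATAA or TGATAG) or a CACCC motif (CCACACCC or CCACGCCC or CCCCACCC or CCCCGCCC) on either strand. They are at chr9:21963577-21963826 on the minus strand (Epor), chr8:84901732-84901981 on the plus strand (Klf1), chrX:150547167-150547416 on the plus strand (Alas2) and chr7:103827929-103828178 on the minus strand (Beta-s, RefSeq symbol Hbb-bs).
Epor: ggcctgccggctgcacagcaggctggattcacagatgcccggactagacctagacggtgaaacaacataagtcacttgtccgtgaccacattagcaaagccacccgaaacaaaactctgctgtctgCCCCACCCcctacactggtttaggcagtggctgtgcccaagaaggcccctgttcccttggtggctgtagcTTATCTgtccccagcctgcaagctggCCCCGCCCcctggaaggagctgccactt
Klf1: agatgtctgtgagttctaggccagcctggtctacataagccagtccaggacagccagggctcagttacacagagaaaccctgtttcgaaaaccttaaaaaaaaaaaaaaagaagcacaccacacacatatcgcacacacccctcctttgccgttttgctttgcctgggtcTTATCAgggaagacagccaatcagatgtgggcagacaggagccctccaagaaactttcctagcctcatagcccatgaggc
Alas2: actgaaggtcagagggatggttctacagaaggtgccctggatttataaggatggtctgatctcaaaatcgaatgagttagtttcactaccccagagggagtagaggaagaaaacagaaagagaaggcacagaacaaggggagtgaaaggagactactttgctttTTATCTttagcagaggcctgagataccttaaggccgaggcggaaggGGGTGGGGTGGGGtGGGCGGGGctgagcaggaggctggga
Beta-s: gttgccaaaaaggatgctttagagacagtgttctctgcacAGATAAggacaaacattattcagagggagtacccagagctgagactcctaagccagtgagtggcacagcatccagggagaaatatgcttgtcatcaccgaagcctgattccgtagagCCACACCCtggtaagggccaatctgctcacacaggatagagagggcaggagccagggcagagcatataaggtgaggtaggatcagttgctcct
In Epor a GATA motif began at position -54 from the start and lay between 2 CACCC motifs. In Klf1 the GATA motif began at -80 and no CACCC motif was found. In Alas2 a GATA motif at -86 was followed by 3 CACCC motifs, of which the first pair overlap and all read on the opposite strand. In Beta-s a GATA motif began at -210 and a CACCC motif at -93. These promoters were chosen by name and all hold a GATA motif. Members without one in this window, such as Sptb and Alad, are not shown.

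RefSeq promoters were matched for 28 of the 39 names. Those without an entry were Slc4a1, Ank1, Cldn13, Nfe2, Fech, Slc25a37, Ahsp, Hbb-b1, Hbb-b2, Car1 and Car2. A GATA motif was found in 17 of the 28 (60.7%), and in 26.5% of all 32851 promoters of the same length. The untested Hba-a1 and Hba-a2 are both among the 17, and their promoters share a stretch of 247 of 250 bases. Each member had 1 promoter, while the 32851 hold every start site of a gene. The first 20 bases after the start were found in the gene's own transcripts for 22 of the 28. A CACCC motif was found in 9 (32.1%), against 27.4% of all promoters, and both together in 5 (17.9%), against 4.31%. The motif of NF-E2 (TGACTCA or TGAGTCA) was found in 2 (7.14%), those of Kel and Trim10, against 4.46% of all promoters. A match describes the letters and is not evidence of binding in these cells.

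The haem synthesis enzymes rose together, by unequal amounts. All 7 enzymes among the members were called higher, with a median log2 fold change of 0.63 and summed levels of 1306 to 1408 CPM in TBK1-DKO against 813 to 859 CPM in WT. Alas2, the erythroid enzyme that makes aminolevulinic acid and sets the rate of the pathway, was at 457, 502 and 449 CPM against 275, 287 and 274. The groups were well separated, with a log2 fold change of 0.75 (SE 0.063, adjusted p = 2.33e-05). For Alas2, 15.5% of the exon bases overlap Apex2 on the opposite strand. Alas1, the isoenzyme of other tissues, is no member and had a log2 fold change of 0.37 (adjusted p = 0.00925).

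Alad had the largest change of all members. It encodes the next enzyme, which joins aminolevulinic acid into porphobilinogen, and lies at chr4:62509169-62519918 on the minus strand. Its level was 134, 162 and 139 CPM in TBK1-DKO against 60.1, 71.7 and 68.3 CPM in WT, so every TBK1-DKO library was well above the WT range. The log2 fold change was 1.12 (SE 0.089, adjusted p = 1.63e-05), or 2.17-fold. Its 95% interval, 0.92 to 1.32, overlapped that of Slc4a1, 0.73 to 1.04. Across the alternatives its log2 fold change ran from 0.95 to 1.18.

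The next steps had smaller fold changes than Alad. Uros, the synthase that closes the porphyrin ring, was at 50.4, 58.0 and 49.7 CPM against 41.3, 43.4 and 39.02. The groups did not overlap, and the log2 fold change was 0.35 (SE 0.075, adjusted p = 0.00683). Without WT 3 this call was lost (adjusted p = 0.0526). Urod, the decarboxylase that follows, was at 132 ± 12 against 88.4 ± 2.6 CPM (0.58), and Cpox, coproporphyrinogen oxidase of the mitochondrion, at 182 ± 2.9 against 118 ± 5.8 CPM (0.63).

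Ppox, the last enzyme but one, was at 97.9, 101 and 96.1 CPM in TBK1-DKO against 75.1, 82.1 and 81.3 CPM in WT. Its libraries were tight in both groups, and the log2 fold change was 0.31 (SE 0.057, adjusted p = 0.00334). In Ppox, 17.5% of the exon bases overlap B4galt3 on the opposite strand. Fech, ferrochelatase, which places the iron in the ring, was at 260, 260 and 265 CPM against 171, 166 and 151, a log2 fold change of 0.69 (SE 0.061, adjusted p = 3.35e-05). Alas2 and Fech, the ends of the pathway, had larger values than Uros and Ppox between them. The 95% intervals of Uros (0.19 to 0.52) and Ppox (0.18 to 0.43) lay below that of Fech (0.55 to 0.82). The other middle steps did not share this. Alad had the largest change, 1.12, and the intervals of Urod (0.42 to 0.73) and Cpox (0.50 to 0.76) overlapped that of Fech.

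Levels were also set per kilobase of exon, with exons merged over all annotated transcripts of a gene. Merged lengths exceed single transcripts unevenly. For Fech it was 13838 bases against 6571 in the longest coding transcript, but for Alas2 2403 against 2037. Comparisons between genes depend on this choice of length. By merged length, the enzymes were far from equal in both groups. In WT, Alas2 was the highest at 116 ± 3.1 CPM per kb, Alad was at 35.6 ± 3.2, Urod at 34.1 ± 1.0, Cpox at 17.7 ± 0.87, Ppox at 17.6 ± 0.85, Fech at 11.8 ± 0.73 and Uros at 11.5 ± 0.61. By this length the neighbours Alad and Urod, Cpox and Ppox, and Fech and Uros each lay within their spread. With the longest coding transcripts instead (Cpox 3097 bases, Ppox 1821), Ppox would have the higher mean of its pair in WT. In TBK1-DKO, Alas2 was at 195 ± 12, Alad at 77.5 ± 8.0 and Urod at 50.9 ± 4.5, so that Alad and Urod were apart. Cpox, at 27.4 ± 0.43, was there above Ppox, at 21.8 ± 0.54, and Fech, at 18.9 ± 0.19, was above Uros, at 14.7 ± 1.3.

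**Figure D4:**
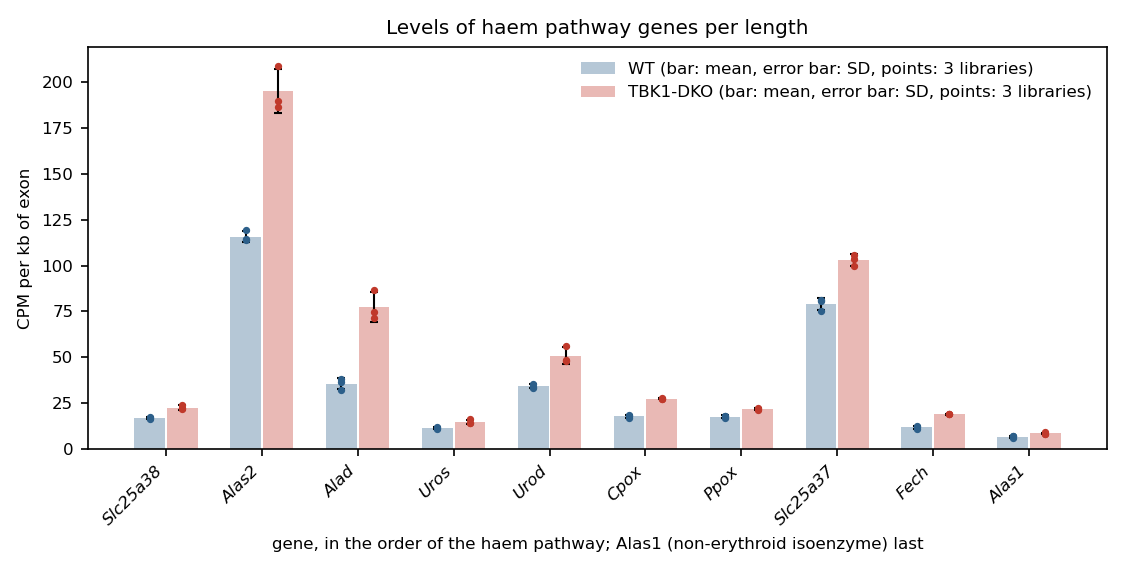
Levels of the haem pathway genes in CPM per kb of exon, in pathway order with Alas1 last; bars are means, error bars SD and points the 3 libraries of each group (WT blue, TBK1-DKO red). Alas2 is the tallest in both groups (116 and 195), and Alad and Urod, level in WT by merged exon length, are apart in TBK1-DKO.

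Of the carriers, Slc25a37, mitoferrin, which brings iron into the mitochondrion, was at 625, 600 and 638 CPM in TBK1-DKO against 489, 485 and 453 CPM in WT. Each group was narrow and they did not overlap, with a log2 fold change of 0.38 (SE 0.061, adjusted p = 0.00122). Slc25a38, which supplies mitochondrial glycine, was at 62.0 ± 3.1 against 46.4 ± 1.8 CPM (0.42). Tspo2, an erythroid relative of the translocator protein, was at 43.8 ± 3.5 against 25.7 ± 1.1 CPM (0.77). The 95% intervals of Slc25a37 (0.25 to 0.52) and Slc25a38 (0.28 to 0.55) lay below that of Tspo2 (0.60 to 0.93).

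Beta globin was read through a single symbol, Beta-s, which is Hbb-bs in RefSeq (chr7:103826534-103828096, minus strand). It was the most abundant member per kilobase, at 2704 ± 98 CPM per kb in WT and 4468 ± 537 in TBK1-DKO. In CPM it was at 3256, 3903 and 3137 in TBK1-DKO and 2023, 2045 and 2163 in WT. TBK1-DKO 2 was the highest of its group, and every TBK1-DKO library lay well above the WT range. The log2 fold change was 0.72 (SE 0.090, adjusted p = 0.000268). Beta-s made up 29.7%, 34.0% and 29.1% of all member reads in TBK1-DKO, against 29.0%, 29.8% and 32.2% in WT, so its share overlapped between the groups.

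The other globin symbols held almost no reads. Hba-a2, Hbb-b1 and Hbb-b2 were at 0 in all 6 libraries. For Hba-a2 a count of 0 allows up to 0.0635 to 0.0954 CPM of counted reads (3 counts per library). It sets no limit on reads that were left out of the count. The symbols Hbb-b1 and Hbb-b2 matched no gene of GENCODE M21, so their counts of 0 say nothing about the level of a gene. Hba-a1 had 1 read, in TBK1-DKO 2. In 50-base windows of the transcripts, 67.5% of Hba-a1 and 86.9% of Hba-a2 occurred in another gene, 439 windows of each in the other. For Hbb-bs, 65.8% of the windows occurred in another gene, mostly in Hbb-bt. This share was close to that of Hba-a1, yet Beta-s had many reads and Hba-a1 had 1. Why the counts differed was not tested. Per the submitters' processing notes reads were counted with HTSeq, which leaves out reads with several alignments unless set otherwise, so the levels of Hba-a1 and Hba-a2 are uncertain and that of Beta-s rests on the reads that were placed. The records set aside for several alignments were 6.53%, 6.99% and 6.45% in TBK1-DKO, against 5.43%, 5.74% and 5.72% in WT; how many were globin reads was not tested.

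The carbonic anhydrases, which turn carbon dioxide into bicarbonate for band 3 to exchange, had the lowest median of the groups, 0.39. Car2 was at 738, 769 and 706 CPM against 578, 535 and 497, a log2 fold change of 0.46 (SE 0.072, adjusted p = 0.00114). Car1, the form abundant in red cells, was at 145, 152 and 138 CPM against 126, 116 and 105, a log2 fold change of 0.33 (SE 0.074, adjusted p = 0.00953). In neither gene did the groups overlap. The call of Car1 was lost without WT 2 (adjusted p = 0.0531) and without WT 3 (0.0574), and 14.5% of its 50-base windows occur in another gene, Gm5843.

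Set against Slc4a1, the members differed in the size of their change. For 7 members the whole 95% interval of the log2 fold change lay below that of Slc4a1: Car2, Slc25a38, Slc25a37, Uros, Car1, Ppox and Tfrc. No member's interval lay above it. The log2 ratio to Slc4a1 within each library was lower in all 3 TBK1-DKO libraries than in all 3 WT libraries for 15 of 33 members, while 90.0% of all genes tested, most of which were not called, showed the same. For the other 18 members the groups overlapped, and for 0 members the ratio was higher in every TBK1-DKO library.

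The lowest relative values were those of Tfrc, with a difference in mean log2 ratio of -0.60, Ppox with -0.58, Car1 with -0.56, Uros with -0.53 and Slc25a37 with -0.50. In all 5 genes the groups did not overlap. Near 0, with overlapping groups, were Ank1 (0.01), Hemgn (-0.02), Nfe2 (-0.02), Tmcc2 (0.04), Tspan33 (-0.06), Epb4.2 (-0.08), Add2 (-0.08) and Sptb (0.09), which hold 4 of the skeleton genes. Alad had the highest value, 0.23, with overlapping groups.

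**Figure D5:**
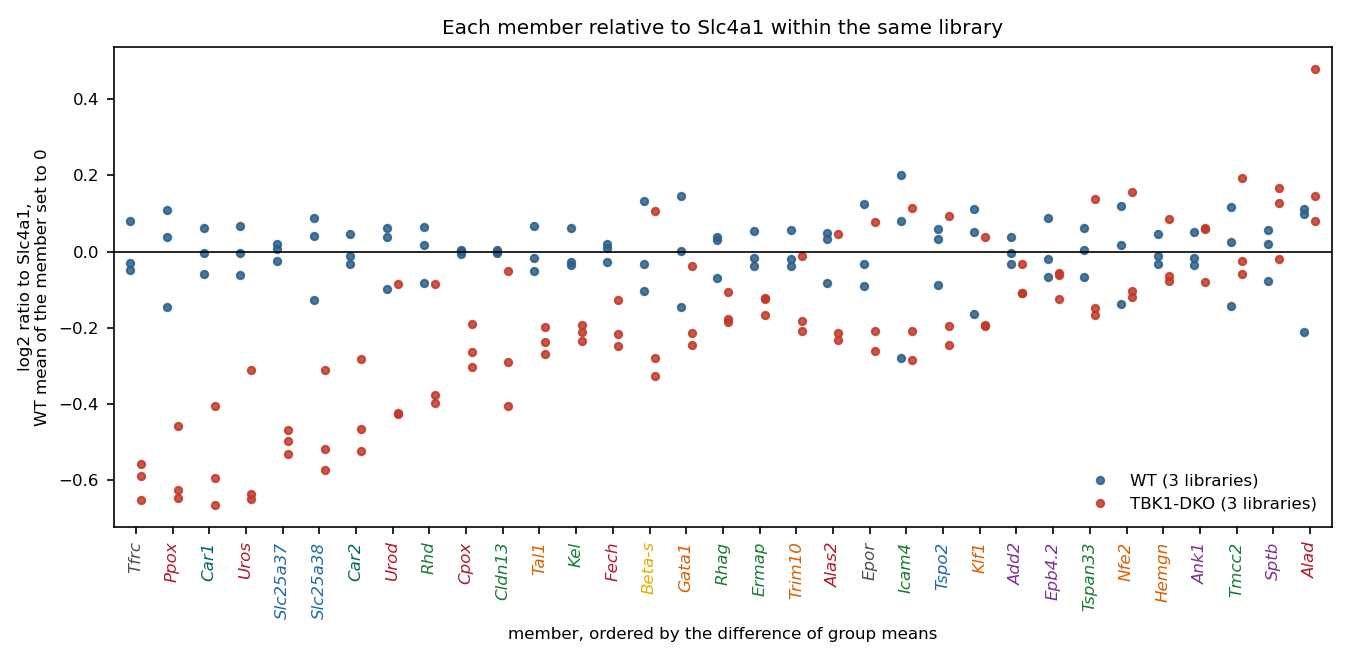
Log2 ratio of each member to Slc4a1 in the same library, with the WT mean of the member set to 0, 1 point per library (TBK1-DKO red, WT blue), ordered by the difference of group means. From Tfrc to Car2 on the left the TBK1-DKO points lie clearly below the WT points, and from Add2 to Alad on the right the groups overlap.

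Within the TBK1-DKO group, library 2 differed from the others by gene. Against the mean of libraries 1 and 3, its member levels ranged from a log2 difference of -0.29 for Sptb to 0.29 for Beta-s. Over the 34 members this difference had a Spearman correlation of -0.66 with exon length, as a description over genes that share the same libraries. In TBK1-DKO 1 and 3 the same quantity, each set against the other pair of the group, had correlations of 0.46 and 0.76. These values depend on each other, since every library enters all of them. In WT 1, 2 and 3 the correlations were 0.40, -0.44 and -0.14. The long transcripts Sptb and Ank1 were thus low and the short Beta-s high in TBK1-DKO 2. For these genes the mean and SD of the group carry this difference.

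Of the other red cell genes, from lists chosen by function, most but not all were higher. Of 62 tested genes, 41 were called higher, 0 lower and 21 were not called, with a median log2 fold change of 0.43. Over all genes tested, 13.7% were called higher and 9.90% lower, which also stands beside the further lists that follow. The count of 0 lower is that of edgeR and of limma-voom; DESeq2 called 1, and 1 gene had an unadjusted p under 0.05 in edgeR. That gene was Fth1, ferritin heavy chain. In the membrane list 12 of 14 were higher (median 0.55). They included Epb4.9, dematin, at 115 ± 4.4 against 65.1 ± 0.58 CPM (0.82), Aqp1, the water channel, at 384 ± 13 against 219 ± 10 CPM (0.81), and Gypc, glycophorin C, at 109 ± 2.6 against 65.8 ± 1.9 CPM (0.74).

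Among 16 further haem and iron genes 9 were higher (median 0.37). Abcb10 and Abcb6, transporters of the mitochondrion and of porphyrins, had log2 fold changes of 0.65 and 0.71, and Steap3, the ferrireductase of erythroid endosomes, one of 0.62. The ferritin chains went the other way without being called: Fth1 was at 1165, 1357 and 1162 CPM against 1282, 1498 and 1585 (-0.25, adjusted p = 0.0907), and Ftl1 had -0.22 (adjusted p = 0.230). In both the groups overlapped. The summed level of this list overlapped between the groups as well, at 5380 to 6153 CPM against 5240 to 6633.

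Among 18 further regulators 10 were higher (median 0.31). Gfi1b, a repressor of erythroid and megakaryocytic cells, was at 35.7 ± 2.2 against 17.3 ± 0.39 CPM (1.04), Zfpm1, the GATA1 partner FOG1, at 101 ± 3.2 against 55.2 ± 4.1 CPM (0.87), E2f2 at 263 ± 2.8 against 161 ± 1.5 CPM (0.71) and Jak2, the kinase bound to the erythropoietin receptor, at 353 ± 21 against 215 ± 11 CPM (0.72). Of 12 red cell enzymes and late maturation genes 9 were higher (median 0.46), among them Ypel4 (0.99), Bpgm, which makes the 2,3-bisphosphoglycerate that loosens oxygen from haemoglobin (0.64), and Ube2o (0.57). Of 6 embryonic and theta globin symbols 2 were tested: Hbq1b was higher, at 11.5 ± 0.89 against 6.76 ± 0.20 CPM (0.77), and Hbq1a, at 0.824 ± 0.26 against 0.507 ± 0.14 CPM, was not called.

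The tested members lay on 17 chromosomes, with at most 6 on any of them.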

How the data were processed

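Total RNA of splenic dendritic cells was sequenced from 3 TBK1-DKO and 3 WT libraries. The authors deposited whole-number read counts per gene symbol, neither scaled nor pooled. TopHat, TopHat2, HTSeq, DESeq2 and the mm10 build are named in the submitters' processing notes; tool versions, the strand setting and the annotation were not given in the sources used here. Records that name no gene, 8.20% to 10.7% of each library, stayed out of library sizes and tests.

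The tests used edgeR 4.0.16 (R 4.3.3): filterByExpr with a minimum count of 10, TMM factors (0.996 to 1.01), robust quasi-likelihood F test without covariates, and Benjamini-Hochberg adjustment over 14388 genes, with an adjusted p under 0.05 called. The script was also run on simulated data with known changes. Standard errors and 95% intervals came from the F statistic. Exon lengths, merged over transcripts, and positions came from GENCODE M21 (GRCm38). Of the symbols, 21739 matched directly and 1275 by synonym, while 406 had none. Summed levels and ratios to Slc4a1 are descriptions without a test. Promoters came from RefSeq (GRCm38.p6). The limit of 3 counts for a level of 0 covers counting error only.

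The members and lists were chosen with earlier results of these data known. The text names all 39 members, up to 4 genes of each further list by smallest p, and 8 marker genes, apart from a few that are not reported here; Alas1, Fth1, Ftl1, Aco1 and Cat were added after their values were seen. Alternatives were DESeq2 1.42.0, limma-voom (limma 3.58.1), other scalings and filters, a replicate block, thinning, offsets for length and GC content, and leaving out libraries. Whether the replicate numbers pair the libraries was not settled, and the main fit did not use them.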

Additional observations from a re-analysis of the deposited data

Results flagged for a closer look

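Records that the counting assigned to no single gene lie outside the comparisons above and were more frequent in TBK1-DKO. Reads with several alignments were 6.65% ± 0.29 of records in TBK1-DKO against 5.63% ± 0.17 in WT (SD, n = 3). Reads that overlapped several genes were 2.83% ± 0.14 against 2.32% ± 0.084, and reads outside any gene 0.727% ± 0.011 against 0.536% ± 0.012. In each, all 3 TBK1-DKO libraries were above all 3 WT libraries. The alpha globin genes, which share most of their 50-base windows, are among those whose reads such a count can leave out, and how many of these records were globin reads was not tested.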

How the results depend on the processing

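All 34 tested members stayed higher in direction under each of 18 alternatives that gave them a value. Of 611 recomputed fold changes, 604 kept their call and 7 lost it, all with 1 library left out and all of Tfrc, Uros or Car1. The number of members called higher ran from 31 to 34 when 1 library was left out (31 without WT 3, 32 without WT 2), and was 33 without globin and immunoglobulin genes, where Beta-s has no value, and 33 at an adjusted p under 0.01. Over all genes tested, 9.1% to 15.7% were called higher with 1 library left out, and 8.83% at an adjusted p under 0.01. The count of further red cell genes called higher ran from 37 to 49. The 49 came with TBK1-DKO 1 and 3 against WT 2 and 3, where 24.2% of all genes tested were called higher. The count of further genes called lower, 0 as reported, was 1 with DESeq2, 3 with length and GC offsets, 4 with TBK1-DKO 1 and 3 against WT 2 and 3, and 0 to 2 with 1 library left out (Fth1 without TBK1-DKO 2; Fth1 and Ftl1 without WT 1). The genes were Fth1, Ftl1, Aco1 and Cat, and the cause was not tested. Over all genes, 1392 were called lower with DESeq2 and 2644 of 14388 with length and GC offsets. With TBK1-DKO 1 and 3 against WT 2 and 3, 3397 of 14456 were called lower. With 1 library left out, 972 to 2082 genes were called lower.

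With the replicate number as a block, 34 members were higher and 0 lower, and 1 further gene (Fth1) was called lower. Of all genes tested, 16.1% were called higher under the block. Deviations from the group means correlated at 0.18, 0.15 and -0.06 for numbers 1, 2 and 3. Between different numbers they ran from -0.22 to 0.12, below the values of numbers 1 and 2. With 3 libraries a group these values cannot settle whether the numbers pair the libraries. The main fit did not use the numbers. Under the block 44 further genes were called higher, and over all genes 2313 were higher and 1773 lower.

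With 3 libraries a group, an exact permutation test cannot go below p = 0.1. TBK1-DKO libraries were deeper. With their reads thinned to the mean WT depth of 33654484, 34 members were again higher, beside 12.6% of all genes tested.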
